A study of Mus musculus with 6 samples.

Results

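The interferon-induced transmembrane (Ifitm) genes were examined in brain mural cells and microvascular fragments. They were the 6 genes *Ifitm1*, *Ifitm2*, *Ifitm3*, *Ifitm5*, *Ifitm6* and *Ifitm10*, taken by symbol from 33460 genes with a deposited value. *Ifitm10* is listed in the annotation under its older name 6330512M04Rik. All 6 were among the 14801 genes tested, those that reached an FPKM of 1 or more in 3 or more libraries. FPKM is the number of sequenced read pairs on a gene, scaled to its transcript length and to the size of the library. *Ifitm6* and *Ifitm10* passed that filter only through the libraries in which they were high.

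All libraries came from mice at postnatal day 6 carrying both reporter transgenes, *Pdgfrb-eGFP* and *NG2-DsRed*, in which fluorescent proteins are driven by regulatory sequence of 2 genes active in mural cells. Mural cells are the pericytes of the smallest vessels and the smooth muscle cells of larger ones. For the 3 mural cell libraries, cells positive for both reporters were sorted by FACS. For the 3 fragment libraries, pieces of vessel were pulled down with anti-CD31 beads, so they carried endothelial cells together with the mural cells attached to them. Every library was therefore a transgenic one, and the comparison was between a sorted cell population and whole vessel pieces.

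IFITM proteins are small membrane proteins with a shared CD225 domain that sit in the plasma membrane and in endosomes. They are best known for blocking the entry of enveloped viruses at membrane fusion, and several of them are induced by interferons. In the mouse most of the genes lie side by side on distal chromosome 7, and *Ifitm1* and *Ifitm3* are also known from early germ cells, while *Ifitm5* is known from bone-forming osteoblasts.

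On NCBIM37 chromosome 7, *Ifitm5* (ENSMUSG00000025489) occupies 148134862 to 148136138 and *Ifitm2* (ENSMUSG00000060591) occupies 148140736 to 148141882, both on the minus strand. *Ifitm1* (ENSMUSG00000025491) follows at 148153120 to 148155724 and is the only member on the plus strand. *Ifitm3* (ENSMUSG00000025492) at 148195485 to 148196669 and *Ifitm6* (ENSMUSG00000059108) at 148201711 to 148202791 complete the cluster on the minus strand. *Ifitm10* (ENSMUSG00000045777) lies apart, at 149511742 to 149559658 on the minus strand.

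The coding sequences of *Ifitm1*, *Ifitm2* and *Ifitm3* are close, which bears on how well reads of one can be told from reads of another. Over aligned coding bases *Ifitm1* was 81.62% identical to *Ifitm2* and 81.93% identical to *Ifitm3*, and *Ifitm2* was 80.78% identical to *Ifitm3*. The stretch that holds the longest runs shared without a difference is shown 5′ to 3′, with the genes set side by side without gaps. Capitals mark where *Ifitm1* or *Ifitm2* differs from *Ifitm3* in this layout, and positions are counted from the first base of the start codon.
Ifitm1 coding bases 67 to 159: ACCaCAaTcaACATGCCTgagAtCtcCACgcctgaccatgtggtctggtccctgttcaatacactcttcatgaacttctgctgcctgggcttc
Ifitm2 coding bases 130 to 222: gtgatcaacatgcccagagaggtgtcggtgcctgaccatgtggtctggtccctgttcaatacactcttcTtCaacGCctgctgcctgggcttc
Ifitm3 coding bases 133 to 225: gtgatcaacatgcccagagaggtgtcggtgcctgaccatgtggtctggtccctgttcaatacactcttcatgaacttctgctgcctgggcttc
In these 93 bases, without gaps, *Ifitm1* differed from *Ifitm3* at 19 positions, all within the first part of the stretch. Part of these differences comes from the lack of gaps, since the run atcaacatgcc stands in both genes at shifted places. *Ifitm2* differed from *Ifitm3* at 4 positions near the end of the stretch. The longest run shared without a difference was 69 bases for *Ifitm2* and *Ifitm3*, 64 bases for *Ifitm1* and *Ifitm3* and 40 bases for *Ifitm1* and *Ifitm2*. Each is shorter than 1 sequencing read of these libraries. A near copy of 1 member was found elsewhere in the genome, at 97.9% identity over 524 bases of *Ifitm1*. It is the gene Gm7676 on chromosome 8, which was listed at 0 in all 6 libraries.

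The 250 bases before the transcription start are shown for the 3 abundant members, of which only *Ifitm1* was called higher in the comparison of the groups given below. A link between these windows and the levels was not tested. Each is written 5′ to 3′ on the strand of its gene, and *Ifitm1* has a second annotated start inside the gene. Capitals in *Ifitm2* and *Ifitm3* mark runs of 10 or more bases that their windows share, and the last capitals in *Ifitm2* mark a match to the core of an interferon-stimulated response element (ISRE).
Ifitm1 first start (Ifitm1-001), chr7:148152870-148153119, plus strand: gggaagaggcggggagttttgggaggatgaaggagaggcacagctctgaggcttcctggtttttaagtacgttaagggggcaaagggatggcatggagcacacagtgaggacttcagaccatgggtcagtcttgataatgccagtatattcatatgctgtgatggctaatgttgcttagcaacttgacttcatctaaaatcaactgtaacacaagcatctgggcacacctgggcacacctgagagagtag
Ifitm1 second start (Ifitm1-002), chr7:148153677-148153926, plus strand: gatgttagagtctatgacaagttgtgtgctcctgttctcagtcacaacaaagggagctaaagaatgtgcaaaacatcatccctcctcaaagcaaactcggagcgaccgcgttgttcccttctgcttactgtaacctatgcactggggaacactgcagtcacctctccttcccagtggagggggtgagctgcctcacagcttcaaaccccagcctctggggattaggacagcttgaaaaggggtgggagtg
Ifitm2 (Ifitm2-201), chr7:148141883-148142132, minus strand: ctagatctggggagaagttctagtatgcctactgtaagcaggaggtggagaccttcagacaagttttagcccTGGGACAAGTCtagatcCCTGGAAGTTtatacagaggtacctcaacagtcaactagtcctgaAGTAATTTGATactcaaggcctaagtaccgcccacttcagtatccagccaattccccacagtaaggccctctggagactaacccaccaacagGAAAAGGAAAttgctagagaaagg
Ifitm3 (Ifitm3-001), chr7:148196670-148196919, minus strand: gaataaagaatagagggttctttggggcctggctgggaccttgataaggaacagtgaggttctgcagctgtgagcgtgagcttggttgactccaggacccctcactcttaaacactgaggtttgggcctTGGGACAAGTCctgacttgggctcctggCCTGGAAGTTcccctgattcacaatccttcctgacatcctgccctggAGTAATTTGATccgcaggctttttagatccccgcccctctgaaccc
The windows of *Ifitm2* and *Ifitm3* shared 3 runs in the same order. The run TGGGACAAGTC started 178 bases before the *Ifitm2* start and 121 bases before the *Ifitm3* start, and it was found in 0.0214% of 69957 windows of protein-coding starts. CCTGGAAGTT started 161 and 93 bases before the starts (0.119% of windows) and AGTAATTTGAT 116 and 46 bases before them (0.01% of windows). No run of 10 bases was shared between a window of *Ifitm1* and a window of any other member. The ISRE core was searched on both strands as GAAA, 2 bases of any kind and GAAA, and *Ifitm2* alone held it, as GAAAAGGAAA starting 24 bases before the start, while 3.165% of all windows held a match. The gamma-activated site was searched as TTCNNNGAA, which reads the same on both strands and was found in 6.418% of all windows. It was present in the *Ifitm6* window and in the window of 1 start of *Ifitm10*. These are matches of letters only, and no binding was measured.

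The values rest on few sequenced read pairs. For genes with a single transcript, 97.3 to 98.3% of the low FPKM values of a library were within 0.05 of a whole number of read pairs, which gave the value of 1 read pair. Protein-coding genes held approximately 5.94, 5.43 and 5.92 M read pairs in the 3 fragment libraries and 2.37, 1.04 and 1.05 M in the 3 mural cell libraries. All 14 mural cell markers were higher in mural cell libraries, against 6.43% of all genes, with ratios of mean FPKM between 6.47 and 12.5. Of the 14 endothelial markers 3 were lower at 2-fold and 0 higher, against 10.1% and 6.43% of all genes. Without the fold limit 9 of them were lower (limma, adjusted p under 0.05), against 13% of all genes. The endothelial markers were still at a summed FPKM of 1720 to 2242 in mural cells, against 2404 to 2797 in fragments. Fibroblast markers were higher in 5 of 6 cases at 2-fold, against 6.43% of all genes, with sums of 495 to 680 in mural cells and 60.1 to 69.1 in fragments. Of these 5, 1 passed the filter only through the mural cell libraries. Microglia markers were lower in 9 of 9 cases, against 10.1% of all genes, with sums of 165 to 208 in mural cells and 1852 to 2213 in fragments. Of these 9, *Aif1* passed the filter only through the fragments, and 8 passed it in both groups. Calls of genes that passed through 1 group only are no support for a difference. The astrocyte marker sum stood apart in mural cell library 3, at 678 against 182 to 231 in mural cell libraries 1 and 2 and 268 to 378 in fragments. By limma, 0 of 18 tested astrocyte, oligodendrocyte progenitor, neuron and erythroid markers were called in either direction. Of all genes, 6.43% were called higher and 10.1% lower. Without the fold limit 1 neuron marker was lower, against 13% of all genes. At an unadjusted p under 0.05, 2 of the 18 were lower and 0 higher, against 20.9% and 14.1% of all genes. In such bulk samples, fewer cells of a type and less RNA per cell cannot be told apart.

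Mural cells were compared with fragments by limma on log2(FPKM + 1), with Benjamini-Hochberg adjustment over all 14801 genes. To be called, a gene had to have an adjusted p under 0.05 together with a ratio of mean FPKM above 2 (higher) or under 0.5 (lower). Of all genes, 952 (6.43%) were called higher and 1493 (10.1%) lower. With quantile normalization the numbers were 1185 and 1105, so the balance of directions depended on the scaling. Of the 6 *Ifitm* genes, *Ifitm1* was called higher and *Ifitm6* and *Ifitm10* were called lower. The latter 2 passed the filter on low values only through the fragments, so their calls are no support for a difference. *Ifitm2* passed the test below 2-fold, and *Ifitm3* and *Ifitm5* did not pass it. Without the fold limit, 9.34% of all genes were higher and 13% lower at an adjusted p under 0.05. Every mural cell library lay above every fragment library for *Ifitm1* and *Ifitm2*, a pattern found in 16.5% of all genes. The opposite pattern held for *Ifitm6* and *Ifitm10* and for 24.5% of all genes.

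**Figure D1:**
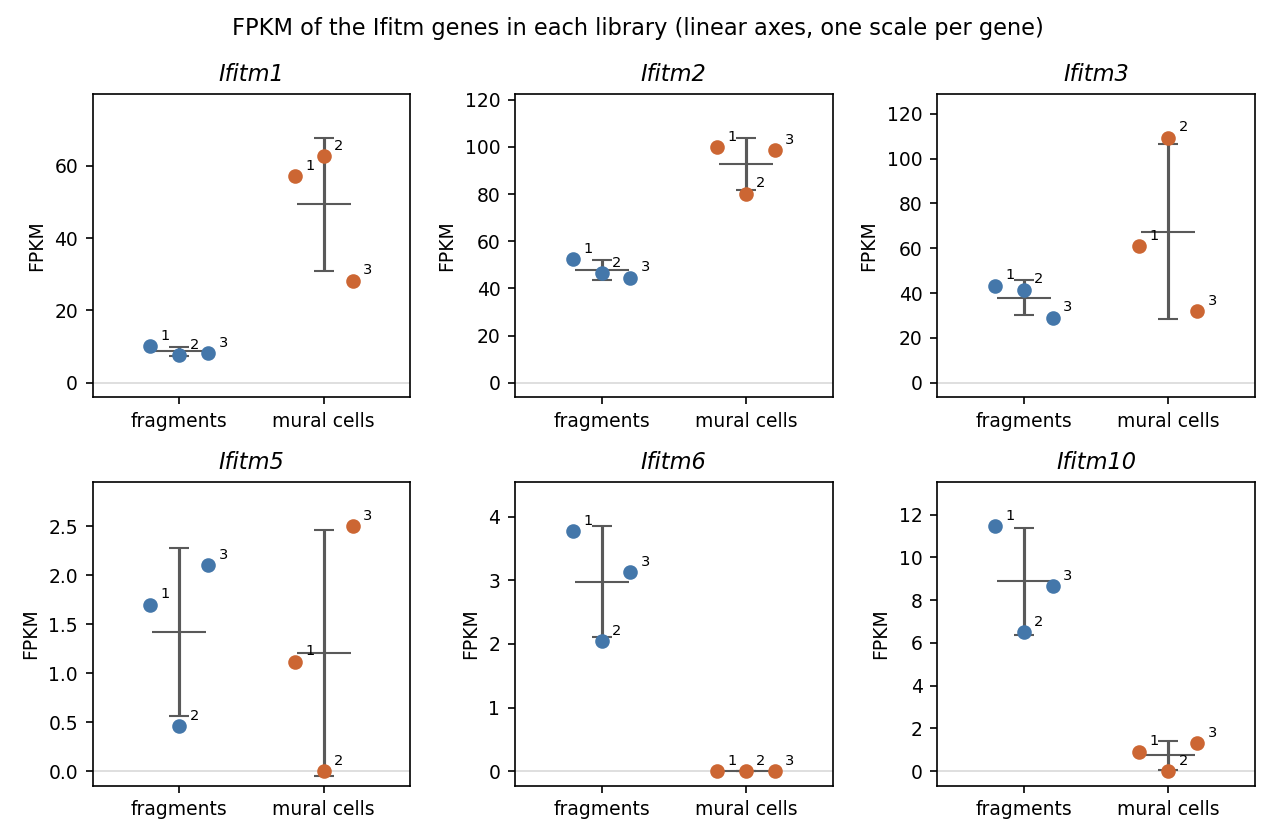
FPKM of each *Ifitm* gene (y axis, linear, a scale of its own per gene) in the 3 fragment libraries (blue) and the 3 mural cell libraries (orange). Points are libraries with their replicate number, and the bar and whiskers give the mean ± SD (n = 3). *Ifitm1* and *Ifitm2* show no overlap with mural cells on top, and *Ifitm3* and *Ifitm5* overlap. The listed values of *Ifitm6* and *Ifitm10* are higher in fragments, through which alone they passed the filter, and for *Ifitm6* a difference was not established at this depth.

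*Ifitm1*, which encodes a family member found mainly at the cell surface, had an FPKM of 10.1, 7.63 and 8.22 in fragment libraries 1, 2 and 3. In mural cell libraries 1, 2 and 3 it had an FPKM of 57.0, 62.7 and 28.3. All mural cell libraries were above all fragment libraries, and library 3 was the lowest of the mural cells. Mural cells had a mean of 49.3 ± 18.5 FPKM and fragments of 8.64 ± 1.27 FPKM (SD, n = 3 each), which gave a ratio of 5.71. The log2 fold change was 2.31 with a standard error of 0.30 (limma, adjusted p = 0.0019), and the 95% interval of the fold change on this scale was 3.04 to 8.14. By mean FPKM *Ifitm1* stood above 86.5% of the tested genes in mural cells and above 39.3% of them in fragments.

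The number of read pairs behind *Ifitm1* can only be bounded, because the gene has 3 transcripts of 560 to 882 bases. Depending on the transcript, the value came from 36 to 69, 17 to 32 and 8 to 15 read pairs in mural cell libraries 1, 2 and 3, and from 17 to 32, 12 to 22 and 14 to 26 in fragments. For mural cell library 3, the exact Poisson 95% interval was 15.8 to 46.6 FPKM with the longest transcript and 12.2 to 55.7 FPKM with the shortest. With the longest transcript, the interval of library 2 was 42.9 to 88.5 FPKM, so the intervals of the 2 libraries overlapped. Such intervals cover counting error only. The summed mural marker FPKM was 5484, 6814 and 5601 in mural cell libraries 1, 2 and 3, lowest in library 1. The genes of the 2 reporters were lowest in library 3, with 461, 474 and 401 FPKM for *Pdgfrb* and 252, 285 and 235 for *Cspg4*. The part of mural cell content in the spread of *Ifitm1* was not tested. The *Ifitm1* ratio was 6.93 without mural cell library 3, 4.94 without library 2 and 5.27 without library 1.

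All 14 mural cell markers had a larger ratio than *Ifitm1*. *Pdgfrb*, the receptor whose regulatory sequence drives the eGFP reporter, had a ratio of 9.80, and *Cspg4*, which encodes NG2, had a ratio of 6.47. Among the 952 genes called higher, 314 had a larger ratio than *Ifitm1*, and the median ratio of the 952 was 3.90. The fibroblast markers that moved with *Ifitm1* also had larger ratios at 2-fold, from 6.17 for *Lum* to 12.9 for *Col1a1*, and their part in the *Ifitm1* result was not tested.

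*Ifitm2* had an FPKM of 52.6, 46.6 and 44.5 in fragments and of 99.8, 80.2 and 98.7 in mural cells. The groups did not overlap, and the mural cell libraries lay closer together than for *Ifitm1*. The means were 92.9 ± 11.02 and 47.9 ± 4.17 (SD, n = 3), a ratio of 1.94. The log2 fold change was 0.94 with a standard error of 0.13 (limma, adjusted p = 0.0026), with a 95% interval of 1.54 to 2.38 for the fold change, so the data did not place the gene on either side of 2-fold. When single libraries were left out the ratio reached 2.04 without fragment library 1 and 2.07 without mural cell library 2. The values came from 110, 90 and 94 read pairs in fragments and 79, 27 and 35 in mural cells.

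*Ifitm3*, the best studied restriction factor of the family and a protein of late endosomes, had an FPKM of 43.3, 41.5 and 29.1 in fragments. In mural cells it had 60.8, 109 and 31.9. The groups overlapped, because mural cell library 3 fell among the fragments while library 2 was far above them. The means were 67.3 ± 39.1 and 37.97 ± 7.76 (SD, n = 3), a ratio of 1.77 with a log2 fold change of 0.66 and a standard error of 0.41 (limma, adjusted p = 0.30). The fold change interval ran from 0.81 to 3.08, which includes no change, the ratio of *Ifitm2* and a 3-fold increase. Without mural cell library 3 the ratio was 2.24 (limma, adjusted p = 0.040), and without mural cell library 2 it was 1.22. The 2 libraries also differed beyond counting error, since 39 read pairs in library 2 gave an exact Poisson 95% interval of 77.8 to 150 FPKM and 12 read pairs in library 3 gave 16.4 to 55.6 FPKM.

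*Ifitm5*, known from osteoblasts, was near the limit of detection. Its FPKM was 1.70, 0.46 and 2.10 in fragments and 1.12, 0 and 2.50 in mural cells, and the groups overlapped. These values rest on 10 read pairs in the fragment libraries together and 2 in the mural cell libraries together. No difference was detectable at this depth (limma, log2 fold change -0.24, adjusted p = 0.78).

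*Ifitm6* had an FPKM of 3.77, 2.04 and 3.13 in fragments and was listed at 0 in all 3 mural cell libraries. In fragments this was 6, 3 and 5 read pairs. A count of 0 allows up to 3 read pairs, which for the mural cell libraries together is an FPKM of 2.67, against a mean of 2.98 ± 0.87 (SD, n = 3) in fragments. Within single mural cell libraries the limit was 5.02 to 11.8 FPKM. *Ifitm6* was called lower by limma (adjusted p = 0.0031), but it was tested only because of its values in fragments, and the test takes no account of the depth behind a value of 0. The level that a count of 0 allows is close to the level in fragments, so a difference was not established at this depth and no fold is given.

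*Ifitm10*, the least studied member and the only one outside the cluster, had an FPKM of 11.5, 6.50 and 8.67 in fragments and of 0.91, 0 and 1.33 in mural cells. Every mural cell library was below every fragment library. The means were 0.75 ± 0.68 and 8.88 ± 2.49 (SD, n = 3), a ratio of 0.084, and the log2 fold change was -2.56 with a standard error of 0.39 (limma, adjusted p = 0.0037). *Ifitm10* was tested only because of its values in fragments, so this p and the lack of overlap are no support for a difference. Without mural cell library 3 the ratio was 0.0513, and without mural cell library 2 it was 0.126. With a pseudocount of 0.1 the log2 fold change was -4.06, so its size depends on that choice. Taken over all its transcripts, the gene overlaps the cathepsin D gene *Ctsd* on the same strand over 2606 bases, although not every transcript reaches *Ctsd*. Of these bases 163 are exonic in both genes, out of 4789 exonic bases of *Ifitm10*. *Ctsd*, a lysosomal protease gene, had a mean FPKM of 625 in fragments and 139 in mural cells, a ratio of 0.22 (limma, adjusted p = 0.00043). The part of *Ctsd* reads in the *Ifitm10* values was not tested.

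The listed values of immune cell markers were lower in mural cells, where those of *Ifitm6* and *Ifitm10* were also below those in fragments. For *Ifitm6* a difference was not established, as given above. The 5 perivascular macrophage markers were called lower in 5 of 5 cases, against 10.1% of all genes. Their sums were 7.02 to 21.9 FPKM in mural cells and 123 to 198 in fragments. Of 9 monocyte and neutrophil markers 5 were tested and 5 were called lower, against the same 10.1%. Their sums were 0 to 6.57 FPKM in mural cells and 54.4 to 170 in fragments over all 9. *S100a8*, *Camp*, *Mpo* and *Elane* were listed at 0 in all mural cell libraries. Of the genes called lower, 4 of the 5 macrophage markers and all 5 of the monocyte and neutrophil markers passed the filter only through the fragments. Calls of such genes are no support for a difference. The ratio of *Ifitm10* was 0.084 with all libraries and 0.0513 to 0.126 when each was left out, against 0.071 to 0.15 for the microglia markers with all libraries. The part of these cells in the values of *Ifitm6* and *Ifitm10* was not tested.

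The order of the levels differed between the groups. FPKM is scaled to transcript length, so levels of different genes can be set side by side. In fragments *Ifitm2* was above *Ifitm3* in each library, both were above *Ifitm10* and *Ifitm1*, and these were followed by *Ifitm6* and *Ifitm5*. *Ifitm10* and *Ifitm1* did not differ beyond their spread there, with ratios of *Ifitm1* to *Ifitm10* of 0.88, 1.17 and 0.95. In mural cells *Ifitm2*, *Ifitm3* and *Ifitm1* came first by their means, in that order. The range of *Ifitm2* lay above that of *Ifitm1*, while the range of *Ifitm3* overlapped both. *Ifitm3* was above *Ifitm2* in library 2 and below it in libraries 1 and 3, and it was above *Ifitm1* in each library. *Ifitm5*, *Ifitm10* and *Ifitm6* were at a mean FPKM of 1.21, 0.75 and 0 in mural cells, and could not be ranked at this depth.

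The FPKM ratio of *Ifitm1* to a relative within a library removes any factor that scales the whole library. *Ifitm1* was at 0.19, 0.16 and 0.18 times the FPKM of *Ifitm2* in fragments and at 0.57, 0.78 and 0.29 times in mural cells. Against *Ifitm3* it was at 0.23, 0.18 and 0.28 times in fragments and at 0.94, 0.57 and 0.89 times in mural cells. In each mural cell library both ratios were above every fragment library. On the log2(FPKM + 1) scale, where such a factor does not cancel fully, the difference between *Ifitm1* and *Ifitm2* was larger in mural cells by 1.38. That between *Ifitm1* and *Ifitm3* was larger by 1.65. With a pseudocount of 0.1 the 2 values were 1.48 and 1.76. By a two-sided exact permutation test of 3 libraries against 3, p was 0.1 for each of the 5 relatives, before and after Benjamini-Hochberg adjustment over the 5, and 0.1 is the smallest p this design allows. When each library was left out in turn, the difference stayed between 1.06 and 1.77 for *Ifitm2* and between 1.503 and 1.87 for *Ifitm3*. Against *Ifitm10* the difference was 4.87, against *Ifitm6* 4.28 and against *Ifitm5* 2.55, and these 3 values rest on relatives at or near 0 in mural cells. With a pseudocount of 0.1 the *Ifitm5* difference was 3.36 and the groups overlapped (exact permutation test, two-sided, p = 0.2).

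**Figure D2:**
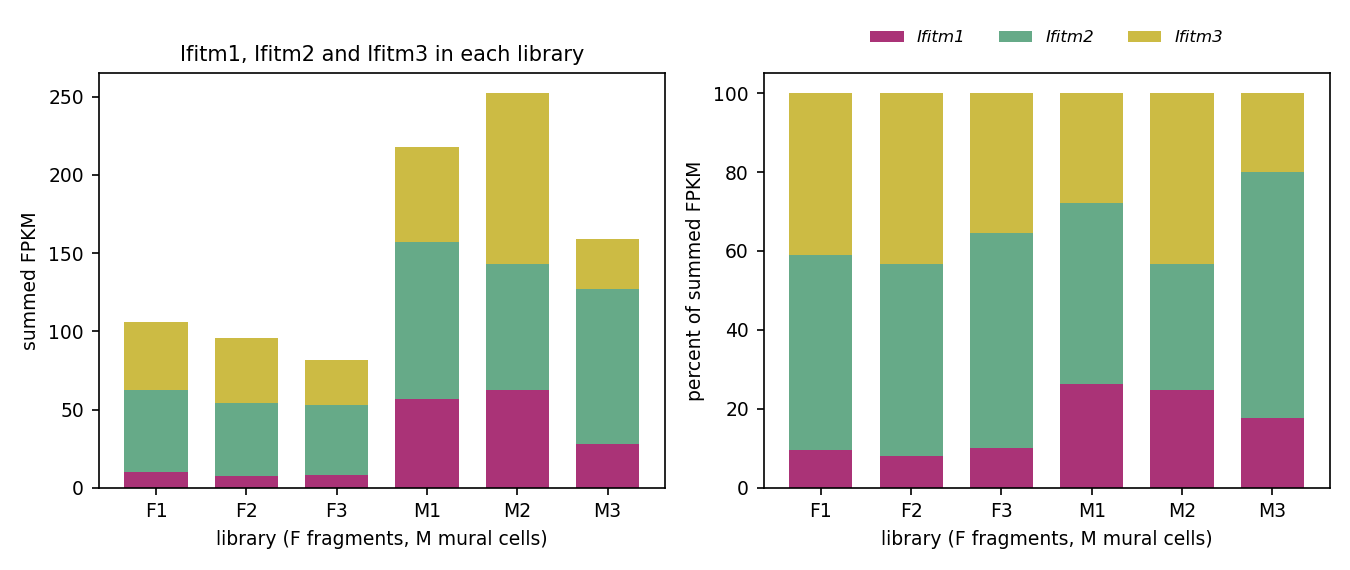
Summed FPKM of *Ifitm1*, *Ifitm2* and *Ifitm3* (left, y axis in FPKM) and their shares of that sum in percent (right) in fragment libraries F1 to F3 and mural cell libraries M1 to M3. The sum is 81.8 to 106 in fragments and 159 to 252 in mural cells, and the *Ifitm1* share is 7.97 to 10.04% in fragments and 17.8 to 26.2% in mural cells.

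Summed over *Ifitm1*, *Ifitm2* and *Ifitm3*, the FPKM was 106, 95.7 and 81.8 in fragments and 218, 252 and 159 in mural cells. The groups did not overlap, and the ratio of the means was 2.22 (exact permutation test, two-sided, p = 0.1). *Ifitm1* made up 9.498, 7.97 and 10.04% of that sum in fragments and 26.2, 24.9 and 17.8% in mural cells (exact permutation test, two-sided, p = 0.1, the smallest possible). The share of *Ifitm2* was 50.9% ± 3.10 in fragments and 46.6% ± 15.2 (SD, n = 3) in mural cells, and that of *Ifitm3* was 39.9% ± 4.01 and 30.5% ± 11.8, with overlap in both cases. The ratio of *Ifitm2* to *Ifitm3* was 1.21, 1.12 and 1.53 in fragments and 1.64, 0.73 and 3.09 in mural cells, so the spread between mural cell libraries was wider than any difference between the groups.

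The genes around the cluster were examined next. Within 200 kb of *Ifitm1* lie 27 genes with a deposited value, of which 13 were tested, including 5 of the *Ifitm* genes. Of the 8 other tested genes 0 were called in either direction by limma, and at an unadjusted p under 0.05 there were 2 higher and 1 lower. Over all genes 6.43% were called higher and 10.1% lower, and 14.1% were higher and 20.9% lower at an unadjusted p under 0.05, so counts this small in 8 genes are near the background. *Athl1*, 25.8 kb upstream of the *Ifitm1* start, had a ratio of 1.78 (limma, adjusted p = 0.064) and *Sirt3*, which encodes a mitochondrial deacetylase, a ratio of 1.82 (adjusted p = 0.17). *Sigirr*, which encodes an inhibitor of interleukin-1 and Toll-like receptor signalling, had a ratio of 0.58 (adjusted p = 0.14). *Psmd13*, a proteasome subunit gene, and *Rnh1*, the ribonuclease inhibitor gene, had ratios of 1.08 and 0.97. Around *Ifitm10*, 7 of 23 genes were tested, and 3 of the 6 others were called lower, against 10.1% of all genes. These were *Ctsd*, *Tnni2*, a troponin gene that passed the filter only through the fragments, with a ratio of 0.099 (adjusted p = 0.012), and *Lsp1*, a leukocyte actin-binding protein gene with a ratio of 0.22 (adjusted p = 0.0094).

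**Figure D3:**
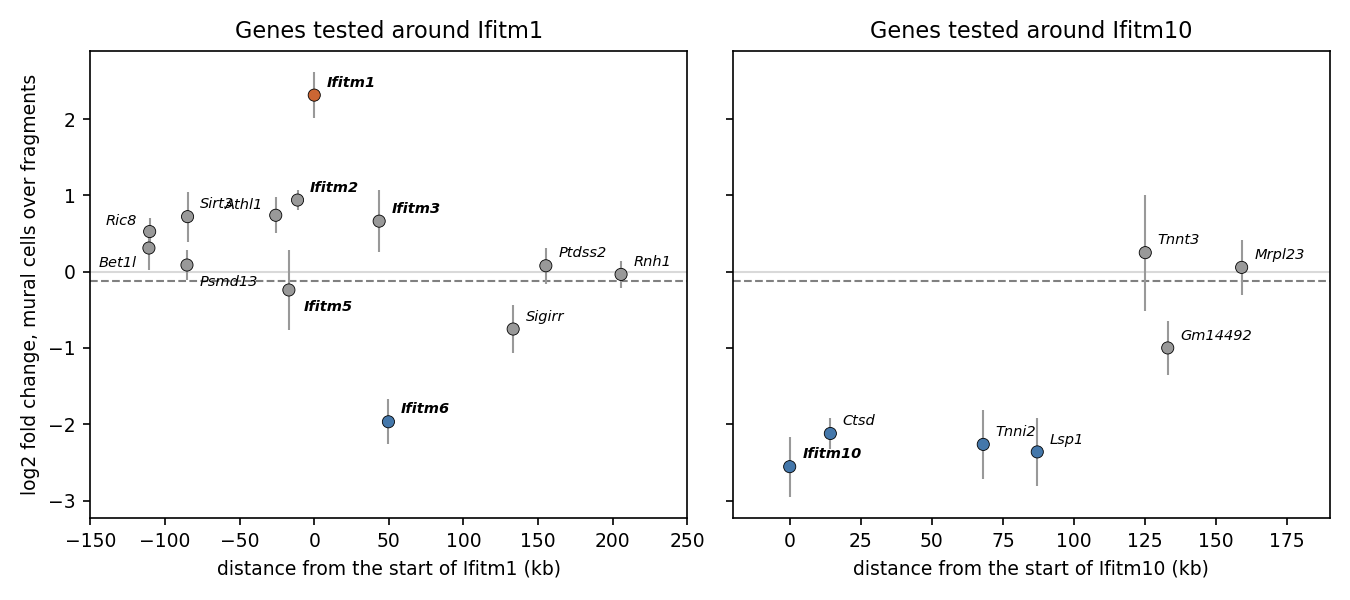
Log2 fold change of log2(FPKM + 1) between mural cells and fragments (y axis) for the genes tested around *Ifitm1* (left) and *Ifitm10* (right), against the distance of their start from that of the named gene in kb (x axis). Orange points were called higher, blue points lower and grey points neither, whiskers are standard errors, *Ifitm* genes are in bold, and the dashed line is the median of all genes tested (-0.12). *Ifitm1* is the only gene called higher, and 3 genes beside *Ifitm10* are called lower.

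Genes whose profile over the 6 libraries was most like that of a member were listed by the root mean square difference of centred log2(FPKM + 1). For *Ifitm1* these were *Stac*, *Spon2*, *Dzip1l*, *Naalad2* and *C1qtnf6*, at a difference of 0.10 to 0.20. *C1qtnf6*, a secreted C1q and TNF related protein gene, had an FPKM of 12.2, 10.9 and 11.1 in fragments and of 60.2, 74.6 and 47.3 in mural cells. *Dzip1l* had 7.18, 4.54 and 4.47 in fragments and 31.3, 41.7 and 23.1 in mural cells. Both were lowest among the mural cells in library 3, as was *Ifitm1*, which follows from how they were chosen. For *Ifitm2* the most alike genes were *Atp5b*, *Klf9*, *Tead2*, *Ptk2* and C230081A13Rik (0.053 to 0.090), and for *Ifitm3* they were *Zscan12*, *Rbks*, *Tmem41a*, *Rab3b* and *Rnf7* (0.14 to 0.21). No other *Ifitm* gene was near the top of these lists. *Ifitm2* was 984th and *Ifitm3* 1233rd in likeness to *Ifitm1*.

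More distant relatives were examined through 9 other genes with a CD225 domain, of which 5 were tested. *Trarg1* (listed as *Tusc5*), a gene known from insulin-regulated glucose transporter traffic in fat, was called higher. It had an FPKM of 0.49, 0.15 and 0.28 in fragments and of 3.63, 5.197 and 6.14 in mural cells, with no overlap. With the pseudocount of 1 its fitted fold change was 4.53, with a 95% interval of 2.81 to 7.31 (limma, adjusted p = 0.0021). It passed the filter only through the mural cell libraries, so this call is no support for a difference. Leaving out any 1 of the 3 mural cell libraries removed it from the tested genes, since it then had an FPKM of at least 1 in fewer than 3 libraries. *Tmem91* had a ratio of 1.57 (adjusted p = 0.27) and *Prrt1* of 2.09 (adjusted p = 0.28), both with overlapping groups. *Ifitm7* was listed at 0 in all 6 libraries.

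Genes of proteins that bind or modify IFITM proteins were next, 15 genes with 13 tested. By limma 0 were called higher at 2-fold, 3 passed the test in that direction below 2-fold, 5 were higher at an unadjusted p under 0.05, and *Cd9*, a tetraspanin gene, was called lower (ratio 0.36). The shares over all genes were 6.43%, 9.34% without the fold limit, 14.1% and 10.1% for these counts in turn. *Cd81*, a tetraspanin that binds IFITM proteins, had an FPKM of 324, 320 and 293 in fragments and of 494, 494 and 467 in mural cells, with a ratio of 1.55 (limma, adjusted p = 0.0053). *Nedd4*, a ubiquitin ligase that acts on IFITM3, had 184, 156 and 160 in fragments and 312, 353 and 296 in mural cells, with a ratio of 1.93 (adjusted p = 0.0017). *Cd151*, a further tetraspanin gene, had a ratio of 1.87 (adjusted p = 0.0030). *Bsg*, which encodes basigin, was the most abundant of the list and had a ratio of 0.98 (adjusted p = 0.94). The palmitoylation gene *Zdhhc20* (ratio 0.83), the methylation gene *Setd7* (1.03) and the membrane contact gene *Vapa* (1.07) did not pass the test.

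**Figure D4:**
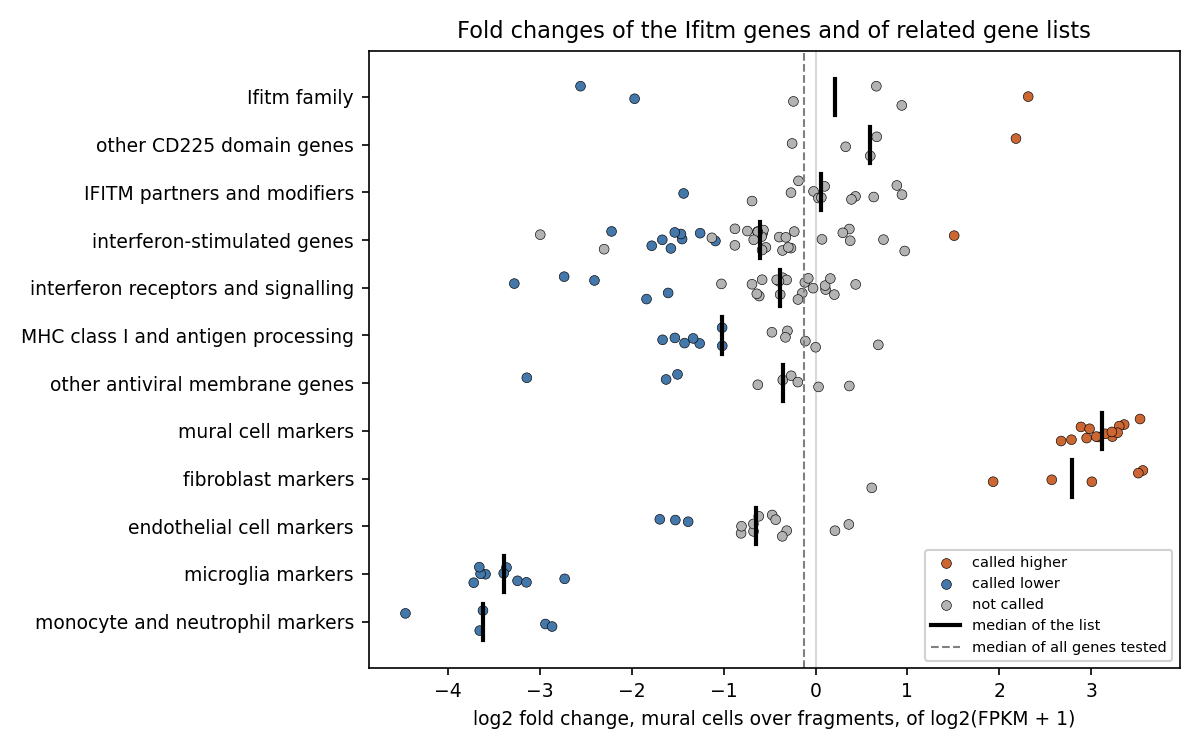
Log2 fold change of log2(FPKM + 1) between mural cells and fragments (x axis) for the tested genes of the *Ifitm* family, of related gene lists and of marker lists (y axis). Each point is a gene, orange if called higher, blue if called lower and grey otherwise, the black bar is the median of the list and the dashed line the median of all genes tested (-0.12). The *Ifitm* genes spread from -2.56 to 2.31, while interferon-stimulated genes have a median of -0.61 with 1 called higher and 9 called lower, 5 of the 9 having been tested only through their values in fragments.

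Other interferon-stimulated genes were compared in the same way. Of 40 such genes, chosen without the *Ifitm* family, 36 were tested, 1 was called higher and 9 were called lower, against 6.43% and 10.1% of all genes. Without the fold limit 2 were higher, against 9.34% of all genes, and at an unadjusted p under 0.05 there were 3 higher and 16 lower, against 14.1% and 20.9%. Their median log2 fold change was -0.61, against -0.12 over all genes tested. *Oasl2*, of the oligoadenylate synthetase-like family, was the 1 called higher, with an FPKM of 10.3, 13.6 and 8.89 in fragments and of 34.5, 34.3 and 28.8 in mural cells (ratio 2.98, limma, adjusted p = 0.0016). *Ifi27* passed the test below 2-fold (ratio 1.70, adjusted p = 0.028). *Ifit2* had a ratio of 2.41 that did not pass it (adjusted p = 0.11), though its lowest mural cell library at 5.26 FPKM was above its highest fragment library at 4.23.

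The 9 called lower were *Trim30a*, *Parp14*, *Dhx58*, *Igtp*, *Isg20*, *Oas1a*, *Oas2*, *Oasl1* and *Mx1*. The last 5 of these passed the filter only through the fragments, where they are high, and are no support for a difference, which leaves 4 that passed it in both groups. Without genes at 0 in every library of a group, an alternative chosen after seeing the data, 6 of 33 were called lower. *Trim30a*, an inhibitor of Toll-like receptor signalling, had 14.2, 17.2 and 18.2 FPKM in fragments and 4.49, 2.53 and 1.72 in mural cells (ratio 0.18, limma, adjusted p = 0.0022). *Dhx58*, a regulator of RNA sensing, had a ratio of 0.27 (adjusted p = 0.0075). *Mx1*, *Oas2* and *Oasl1* were listed at 0 in all mural cell libraries and below an FPKM of 3 in each fragment library, so their sizes are not given. The number called lower was 3, 3 and 2 of 32 tested when fragment library 1, 2 or 3 was left out. Leaving out a fragment library also removed genes that reached the filter only in fragments, so part of this fall was set by the filter. *Trim25*, a ubiquitin ligase of RNA sensing and the most abundant of the list in fragments, had a ratio of 0.85 (adjusted p = 0.35). *Bst2*, which encodes the tethering protein tetherin, had a ratio of 1.30 with overlapping groups (adjusted p = 0.39).

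Of 26 genes for receptors and signal carriers of the interferon pathway 25 were tested, with a median ratio of 0.76. By limma 0 were called higher and 5 lower, against 6.43% and 10.1% of all genes, and 6 were lower without the fold limit, against 13%. At an unadjusted p under 0.05 there were 0 higher and 11 lower, against 14.1% and 20.9% of all genes. The type I receptor gene *Ifnar1* had 102, 115 and 109 FPKM in fragments and 86.3, 136 and 80.6 in mural cells (ratio 0.93, adjusted p = 0.66), and *Ifnar2* had a ratio of 0.87 (adjusted p = 0.38). The kinase gene *Jak1* had a ratio of 0.98 (adjusted p = 0.90). The genes called lower were the interferon regulatory factors *Irf1* (ratio 0.30), *Irf5* (0.20) and *Irf8* (0.13) and the signalling inhibitors *Socs1* (0.13) and *Socs3* (0.085), of which *Socs1* passed the filter only through the fragments. *Irf8* is a factor of the myeloid lineage. The ratios of *Irf8*, *Socs1* and *Socs3* lay within the range of the microglia markers, and those of *Irf1* and *Irf5* lay above it. The part of microglia in these values was not tested. Of 8 interferon genes with a value, 5 were listed at 0 in all libraries, and the 1 tested, *Ifnk*, did not pass the test (adjusted p = 0.95).

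Genes of class I antigen presentation, which interferons also induce, were called lower by limma in 7 of 13 cases, against 10.1% of all genes, and higher in 0 of 13, against 6.43%. At an unadjusted p under 0.05 there were 7 lower and 1 higher (*Tap2*, a peptide transporter gene, ratio 1.72, adjusted p = 0.096). *B2m*, the light chain, had 167, 139 and 180 FPKM in fragments and 81.7, 69.1 and 88.6 in mural cells (ratio 0.49, limma, adjusted p = 0.0027). The heavy chain genes *H2-K1*, *H2-D1* and *H2-Q4* had ratios of 0.38, 0.44 and 0.30, the immunoproteasome genes *Psmb8* and *Psmb10* of 0.34 and 0.35, and the trimming peptidase gene *Erap1* of 0.48. Reads of the heavy chain genes may be shared among their near-identical copies, so their single values are uncertain. The number called lower was 4 without fragment library 1 and 2 without fragment library 3. Of 9 tested genes for other antiviral membrane proteins 0 were called higher by limma and 3 lower, against 6.43% and 10.1% of all genes, with 0 higher and 4 lower at an unadjusted p under 0.05. The 3 were *Ly6e* (ratio 0.35), *Cd74* (0.091), which passed the filter only through the fragments, and *Ifi30*, which encodes the thiol reductase GILT (0.32). Microglia and macrophage markers moved in the same direction as these lists, as given above, and their part was not tested.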

How the data were processed

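RNA-seq was performed on 3 libraries of FACS sorted mural cells and 3 libraries of microvascular fragments. The authors deposited 1 file of FPKM values per library, made with TopHat2 2.0.4 on NCBIM37, removal of duplicated reads with Picard 1.92 and Cufflinks 2.2.1. A stranded kit was used, but the strand setting and the scaling between libraries are not given in the sources used here. Removal of duplicates can lower the values of short abundant genes.

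Of 9 identifiers listed more than once, 1 line was kept. Symbols came from the GENCODE annotation of NCBIM37, *Ifitm10* through a RefSeq synonym, and promoter windows from that genome. Tests used limma 3.58.1 in R 4.3.3 with a pseudocount of 1 and an intensity trend, after a check on simulated data, and exact permutation tests in SciPy 1.17.1. Python 3.11.15, pandas 2.3.3 and Biopython 1.88 did the rest. Of 209 symbols on the gene lists 206 were matched, and *Psmb9*, *Ifna1* and *Ifna5* were not analysed here. The *Ifitm* genes and the lists were chosen with earlier results of these data known. The genes named are the *Ifitm* genes, list members called in either direction or among the 3 most abundant of their list, genes within 200 kb of *Ifitm1* or *Ifitm10*, the 5 genes most alike in profile and 4 reference markers, of which the text gives a choice. *Ifit2*, *Bst2*, *Ifi27* and other uncalled genes given with values were chosen after their values were seen. Per the methods each brain gave both kinds of sample, but nothing ties replicate numbers to animals, so that p-values measure the spread between these samples.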

Additional observations from a re-analysis of the deposited data

How the results depend on the processing

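The direction of *Ifitm1* and *Ifitm2* was the same, with an adjusted p under 0.05 from limma, under each of the 14 alternatives. The log2 fold change was 2.10 to 2.67 for *Ifitm1* (adjusted p 0.0005 to 0.010) and 0.88 to 1.04 for *Ifitm2*. *Ifitm10* had a log2 fold change of -4.06, with a pseudocount of 0.1, to -2.20 over the same 14 (limma, adjusted p 0.0036 to 0.032). The fitted change of *Ifitm6* was negative in the 9 that gave it a value. Its size depends on the pseudocount, because its mural cell values were 0, and is not given. *Ifitm6* and *Ifitm10* passed the filter only through the fragments. *Ifitm6* was removed by an FPKM limit of 5, by leaving out 1 fragment library and, in an alternative chosen after seeing the data, by leaving out genes at 0 in every library of a group. Depth limits *Ifitm5* and *Ifitm6* most. *Ifitm5* had a log2 fold change of 0.085 with quantile normalization, which raised the median of all genes by 0.12, and of -0.66 to 0.24 when each library was left out. *Ifitm3* ranged from 0.23 to 1.10 in the same way, and it passed the test only without mural cell library 3. An FPKM limit of 5 left 948 genes called lower, fewer genes being tested. Of the interferon-stimulated genes, 4 were lower with that limit, 5 with quantile normalization, and 2 to 11 when each library was left out. The same step gave 2 to 7 lower genes of class I presentation, 691 to 949 genes called higher and 607 to 1733 called lower. Leaving out a fragment library also removed genes that reached the filter only in fragments, so fewer interferon-stimulated genes and fewer genes in all were tested. With the replicate block, 900 genes were called higher and 1344 lower, and adjusted p was 0.0037 for *Ifitm1*, 0.0075 for *Ifitm2* and 0.13 for *Ifitm3*. The block changed no call of an *Ifitm* gene. Same-numbered libraries correlated at 0.082, 0.020 and 0.045 in their deviations, so the numbers were not taken as pairs, although each mural cell library correlated best with the fragment library of its number. The differences between *Ifitm1* and each relative kept their direction in each alternative, with a smallest possible p of 0.25 when paired.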
